A study of Mus with 8 samples.

Results

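The genes described here encode the enzymes that build triglyceride from glycerol 3-phosphate, together with enzymes that supply that backbone. The 10 genes were chosen by name, for their place in the pathway, from the 24013 genes of the count table: Gpd1 (NCBI gene 14555), Pck1 (18534), Gpam (14732), Gpat4 (102247), Agpat2 (67512), Agpat3 (28169), Lpin1 (14245), Lpin2 (64898), Dgat1 (13350) and Dgat2 (67800). The choice was made with earlier results of these data known. All 10 were in the table and among the 13339 genes with enough counts to be tested. Pck1 had enough counts for a test only through the induced P cells, where it was highest. Nothing is therefore drawn from its test results, and called genes are counted over the 9 other genes.

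RNA was sequenced from 3T3-L1 cells, a mouse preadipocyte line that turns into fat cells when hormones are added. C cells carried a scrambled shRNA and P cells an shRNA against Prep1 (gene symbol Pknox1), a homeodomain transcription factor. Both shRNAs were brought in by a lentivirus, and the infected cells were selected with puromycin. Cells were collected at day −2 (called uninduced below), when grown in calf serum without hormones, and at day 1 (induced), after the hormones had been given in foetal serum. The induction medium held 1 µM dexamethasone, 0.5 mM IBMX and 1 µg/ml insulin. Each of the 4 conditions (C and P cells, each at day −2 and day 1) had 2 biological replicas, 8 libraries in all. Days −2 and 1 differ in hormones, serum and time in culture, and these cannot be told apart.

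Triglyceride is made in steps, each of which can be carried out by more than 1 isoenzyme. Glycerol 3-phosphate is made from dihydroxyacetone phosphate by glycerol 3-phosphate dehydrogenase (Gpd1). Dihydroxyacetone phosphate comes from glycolysis, or from pyruvate and lactate by glyceroneogenesis, in which cytosolic phosphoenolpyruvate carboxykinase (Pck1) is a key enzyme. Acyltransferases add a fatty acid to give lysophosphatidate (Gpam, also called GPAT1, in mitochondria, and Gpat4 in the endoplasmic reticulum), then another to give phosphatidate (Agpat2, Agpat3). Lipins (Lpin1, Lpin2) remove the phosphate, and the resulting diacylglycerol receives its last fatty acid from Dgat1 or Dgat2. In fat cells these products fill the lipid droplet, and Gpd1 is a long-used marker of adipocyte differentiation.

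The libraries held between 20428816 and 27614353 counts. Values are given as CPM (the reads of a gene relative to the scaled size of its library) after scaling of the library sizes, and 3 counts correspond to 0.107 to 0.160 CPM, a limit that stands for counting error alone. Prep1 itself had 27.3 ± 1.16 CPM in uninduced C cells and 17.8 ± 0.739 in uninduced P cells, and 37.3 ± 1.11 against 23.7 ± 0.125 at day 1 (mean ± SD, n = 2). The P libraries were below the C libraries on both days, by log2 −0.62 and −0.65, with adjusted p-values of 0.0558 and 0.0575 (edgeR, Benjamini-Hochberg), though neither ratio was under 0.5. The P libraries of day −2 stood farthest apart: the SD of the log2 difference between their replicas, over the 5600 genes with a mean log2 CPM above 5, was 0.795, against 0.121 to 0.261 in the other conditions. In particular, replica 1 had the lowest scaling factor, 0.837, and a summed level of 9 preadipocyte and fibroblast markers of 49902 CPM, against 14734 in replica 2 and 11534 to 18982 in the 6 other libraries. Most of this sum was Col1a1, Col3a1 and Vim, with 23559, 15766 and 8013 CPM in replica 1 against 4882, 3904 and 4000 in replica 2. The sum therefore says little on the other markers. Many values that rest on these libraries are therefore also given without replica 1 or replica 2. A value printed without such a pair may have moved as well. Skeletal muscle and hepatocyte markers stayed at or under 0.319 CPM in sum in every library, endothelial markers at or under 1.33, epithelial markers at or under 3.27 and leukocyte markers at or under 8.01.

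Below, a called gene is one with an adjusted p under 0.1 together with a ratio above 2 or below 0.5. With 2 replicas per condition, an exact permutation test of a single gene cannot go below p = 0.333, so the tests given are those of the edgeR quasi-likelihood model fitted over all genes and all libraries.

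With induction Dgat2 and Gpd1 were called higher in both cell types, and none of the 9 genes detected in every library was called lower. This was 2 of the 9 in C cells, where the background was 10.7% of all tested genes called higher and 9.68% called lower, and 2 of the 9 in P cells, where it was 7.65% and 10.4%. Without the limit on the ratio, 5 of the 9 passed the p threshold in C cells (background 35.6%) and 4 in P cells (31.4%). The median log2 ratio of the 9 genes was 0.45 in C cells and 0.41 in P cells, against 0.01 in both over all genes detected in every library, and 6 of the 9 ratios were above 0 in each. In P cells the middle of the 9 was 0.58 (Gpam) without replica 1 of day −2 and 0.16 (Dgat1) without replica 2.

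Of the same 9 genes, Gpd1 was called higher in P than in C cells on both days. At day −2 this was 1 gene called higher (background 4.83%) and 0 called lower (2.15%), and 2 genes, Gpd1 higher and Lpin2 lower, passed the p threshold at any ratio (11.3%). At day 1 it was 1 gene called higher (1.83%) and 0 lower (2.23%), and the same gene alone passed at any ratio (6.15%). The median log2 ratio of P to C cells over the 9 genes detected in every library was 0.45 before induction, with 7 above 0, and 0.31 after it, with 6 above 0, against 0.02 and 0.01 over all such genes. Before induction the middle of the 9 was 0.14 (Dgat1) without replica 1 of P cells at day −2 and 0.72 (Dgat1 and Gpat4) without replica 2. An interaction, the difference of the responses, was called at an adjusted p under 0.1 with no limit on its size, and 1 of the 9 passed, Gpd1 (background 2.37%). The 4 comparisons share libraries, each condition entering a pair of them, so their values are not independent of each other. Scaling by library totals in place of TMM would shift the median of all genes by 0.19 in the induction of P cells and by −0.18 in P against C cells at day −2. Under it the split of higher and lower calls over all genes moved from 1020 and 1386 to 1288 and 1074 in the former, and from 644 and 287 to 453 and 365 in the latter.

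**Figure D1:**
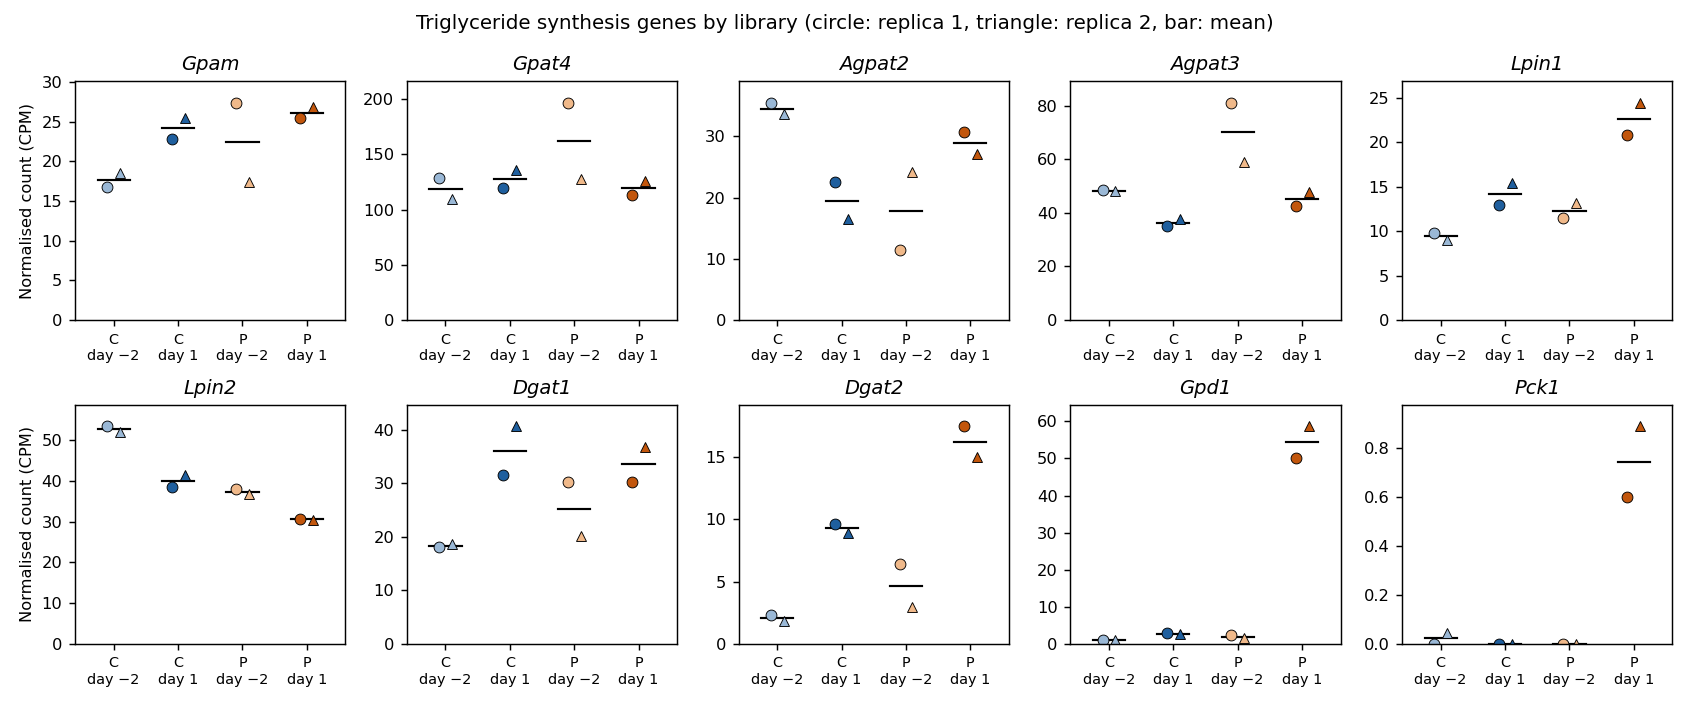
Normalised count (CPM, each panel with its own linear scale from 0) of the 10 genes in the 8 libraries; circles are replica 1, triangles replica 2 and bars the mean of a condition. Gpd1 in the P libraries at day 1 (50.0 and 58.6 CPM) and Pck1 in the same libraries stand apart from all other conditions, and the P libraries at day −2 lie farthest apart for Gpam, Gpat4, Agpat2, Agpat3, Dgat1 and Dgat2.

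Gpd1, which reduces dihydroxyacetone phosphate to glycerol 3-phosphate, had the largest fitted ratio of the 9 genes detected in every library in the induction of P cells and in induced P against C cells. Its level was 0.917 and 0.886 CPM in the C libraries at day −2 and 2.24 and 1.57 CPM in the P libraries. At day 1 it was 2.88 and 2.55 CPM in the C libraries and 50.0 and 58.6 CPM in the P libraries, from 1170 and 1256 counts. The conditions did not overlap in any of the 4 comparisons, and the order from low to high was uninduced C, uninduced P, induced C and induced P cells. A lack of overlap was common: 77.7% of all tested genes showed it with induction in C cells and 60.6% in P cells. In P against C cells 53.8% showed it at day −2 and 60.5% at day 1. The neighbours uninduced P and induced C cells lay close, with 1.90 ± 0.472 and 2.71 ± 0.235 CPM, and were not tested against each other.

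Induction raised Gpd1 in both cell types. The log2 ratio was 1.58 (SE 0.25, 95% confidence interval from 1.00 to 2.17, edgeR adjusted p = 0.00489), a ratio of 3.00, in C cells. It was 4.85 (SE 0.25, interval from 4.26 to 5.43, adjusted p = 1.28e-04), a ratio of 28.8, in P cells, and 5.10 and 4.61 without replica 1 or replica 2 of P cells at day −2. The response in P cells exceeded that in C cells by 3.26 on the log2 scale (SE 0.34, interval from 2.45 to 4.07, interaction adjusted p = 0.011). Leaving out replica 1 of C cells at day −2 moved the adjusted p of this interaction to 0.106, and leaving out replica 2 of P cells at day 1 moved it to 0.102, with log2 differences of 3.23 and 3.13. At day 1 the P libraries were above the C libraries by log2 4.32 (SE 0.24, interval from 3.76 to 4.88, adjusted p = 8.55e-04), a ratio of 20.0. With any 1 library left out, Gpd1 was still called in the induction of C cells, in the induction of P cells and in induced P against C cells.

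Before induction Gpd1 was also called higher in P cells, but the call was lost with most libraries left out. The log2 ratio of P to C libraries was then 1.06 (SE 0.25, interval from 0.45 to 1.66, adjusted p = 0.0643), a ratio of 2.08. Both P libraries were above both C libraries. Without replica 1 of P cells at day −2 the value was 0.80 and without replica 2 it was 1.30. Leaving out any of the 7 libraries other than replica 2 of P cells at day −2 ended the call, with adjusted p-values of 0.0923 to 0.378, the lowest of these (without replica 1 of P cells at day −2) lost through the ratio.

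The summed level of mature adipocyte markers was highest in the induced P cells, as Gpd1 was. With induction in C cells, where Gpd1 rose, the sum did not rise, but at day −2 it was mostly Fabp4, and single markers moved in opposite directions. The summed level of 7 of them (Adipoq, Plin1, Cidec, Lep, Cfd, Retn and Fabp4) was 2.43 to 2.75 CPM in C cells at day −2, with Lep at 0 in both libraries, and 22.5 to 34.1 in P cells at day −2. It was 2.05 to 2.19 in C cells at day 1, with Cfd at 0, and 140 to 142 in P cells at day 1. With induction in C cells the mean of Fabp4 fell from 2.21 to 1.09 CPM. Cidec rose from 0.168 to 0.515 CPM and Retn from 0.0819 to 0.317, and the other markers had at most 3 counts in any C library. The sum in C cells therefore says little on markers other than Fabp4. Adipoq, Cfd and Retn, like Pck1, had enough counts for a test only through the induced P cells, so no count of called markers is given. In bulk RNA more cells of a type and more RNA per cell cannot be told apart, and the part of differentiated cells in the values of Gpd1 and Pck1 was not tested.

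Pck1, which turns oxaloacetate into phosphoenolpyruvate in the cytosol, was detected almost only in the induced P cells. Its counts were 14 and 19 in the P libraries at day 1, or 0.598 and 0.887 CPM. The 6 other libraries held 0 counts but for 1 count in replica 2 of C cells at day −2. A count of 0 allows up to 0.107 and 0.160 CPM in the P libraries at day −2. The mean of the P libraries at day 1 was 0.743 CPM. The floor of 3 counts per library averaged 0.133 CPM in P cells at day −2 and 0.119 CPM in C cells at day 1. Even at its highest, Pck1 stayed under 1 CPM, so only its presence above the floor in the induced P cells can be stated.

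**Figure D2:**
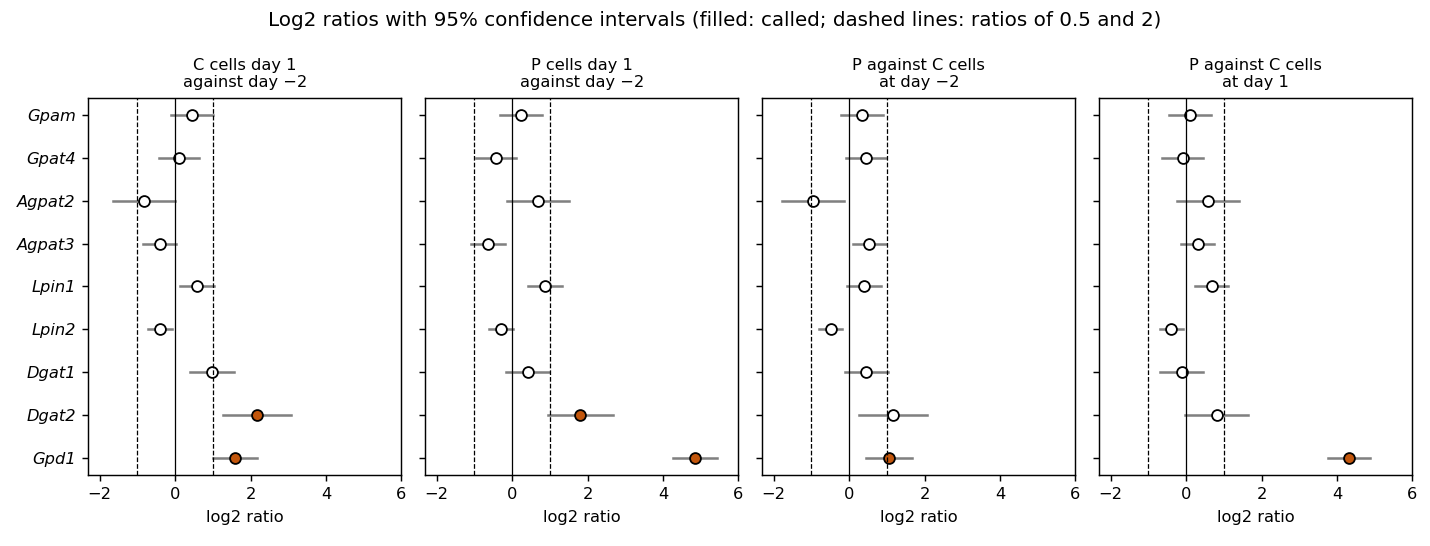
Log2 ratios (points) with 95% confidence intervals (lines) from the edgeR model for the 9 genes detected in every library, in the 4 comparisons; filled points were called, and the dashed lines mark ratios of 0.5 and 2. Gpd1 and Dgat2 are the only filled points, and the interval of Gpd1 in induced P against C cells reaches from 3.76 to 4.88.

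The acyltransferases of the first step, Gpam and Gpat4, were not called in any comparison. Gpam, the mitochondrial enzyme, had 16.8 and 18.6 CPM in uninduced C cells and 27.4 and 17.4 in uninduced P cells. At day 1 it had 22.8 and 25.5 CPM in induced C cells and 25.4 and 26.8 in induced P cells. Apart from replica 1 of uninduced C cells, every library lay within the range of the P libraries of day −2. Its log2 ratio was 0.45 with induction in C cells (interval from −0.10 to 1.00, edgeR adjusted p = 0.199) and 0.23 in P cells (from −0.32 to 0.78, 0.510). Between P and C cells it was 0.34 at day −2 (from −0.22 to 0.89) and 0.11 at day 1 (from −0.44 to 0.66, adjusted p = 0.906). The upper end of the interval in C cells, 1.00, is a ratio of 2. Without replica 1 of P cells at day −2 the difference at day −2 was −0.02 and the response of P cells 0.58, and without replica 2 they were 0.63 and −0.06.

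Gpat4, the enzyme of the endoplasmic reticulum, had 128 and 110 CPM in uninduced C cells and 197 and 128 in uninduced P cells, and 119 and 136 against 113 and 126 at day 1. Replica 1 of P cells at day −2 was above every other library, and the remaining 7 lay between 110 and 136 CPM. No comparison was called: the log2 ratio was 0.10 with induction in C cells (interval from −0.43 to 0.63) and −0.44 in P cells (from −0.97 to 0.09, edgeR adjusted p = 0.203). P cells differed from C cells by log2 0.45 at day −2 (adjusted p = 0.257) and −0.09 at day 1 (0.923). Without replica 1 of P cells at day −2 the difference at day −2 was 0.11 and the response of P cells −0.11, and without replica 2 they were 0.72 and −0.71.

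Agpat2, the acyltransferase whose loss in humans causes congenital lipodystrophy, had 35.5 and 33.6 CPM in C cells at day −2 and 22.5 and 16.4 at day 1. In P cells it had 11.4 and 24.2 CPM at day −2 and 30.6 and 27.1 at day 1. The C libraries were lower at day 1 and the P libraries higher, in each case without overlap, as for 77.7% and 60.6% of all tested genes. Neither response passed the p threshold: the log2 ratio was −0.83 in C cells (SE 0.34, interval from −1.65 to −0.01, edgeR adjusted p = 0.123) and 0.69 in P cells (SE 0.35, from −0.13 to 1.51, 0.193). The response of P cells was 0.25 without replica 1 of day −2, and 1.35 and called without replica 2. The difference between the responses was 1.52 (interval from 0.36 to 2.68), with an interaction adjusted p of 0.244. It was 1.05 without replica 1 and 2.17 without replica 2 of P cells at day −2, and was called in both cases (adjusted p of 0.0275 and 2.62e-04) and by DESeq2 (0.0734). Over all genes the interactions called numbered 1484 and 8395 in these cases and 930 by DESeq2, in place of 316. P cells differed from C cells by log2 −0.95 at day −2 (adjusted p = 0.153) and 0.57 at day 1 (0.519), and the difference at day −2 was −0.50 without replica 1 and −1.60 without replica 2 of P cells, and called in the latter case.

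Agpat3, a further isoenzyme of the phosphatidate step, had 48.4 and 48.2 CPM in C cells at day −2 and 35.0 and 37.8 at day 1. In P cells it had 81.1 and 59.0 CPM at day −2 and 42.4 and 47.6 at day 1. All day 1 libraries were below the day −2 libraries of the same cells. The log2 ratio was −0.41 in C cells (SE 0.18, edgeR adjusted p = 0.149) and −0.64 in P cells (SE 0.18, interval from −1.08 to −0.20, adjusted p = 0.0517). The latter passed the p threshold and was short of the ratio, and it was −0.40 without replica 1 and −0.84 without replica 2 of P cells at day −2. P cells exceeded C cells by log2 0.54 at day −2 (adjusted p = 0.139) and 0.31 at day 1 (0.517), neither of which passed, and the former was 0.30 without replica 1 and 0.74 without replica 2.

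Lpin1 and Lpin2, both phosphatidate phosphatases, had ratios of opposite sign in each of the 4 comparisons. Lpin1, the main lipin of fat tissue, had 9.80 and 8.99 CPM in C cells at day −2 and 12.9 and 15.4 at day 1. In P cells it had 11.4 and 13.1 CPM at day −2 and 20.8 and 24.4 at day 1. Both day 1 P libraries were above all others. The response was log2 0.59 in C cells (SE 0.19, interval from 0.14 to 1.04, edgeR adjusted p = 0.0612) and 0.88 in P cells (SE 0.19, from 0.43 to 1.32, 0.0194), both past the p threshold with ratios under 2. P cells exceeded C cells by log2 0.39 at day −2 (adjusted p = 0.246) and 0.68 at day 1 (interval from 0.23 to 1.12, adjusted p = 0.12). The difference between the responses, 0.29 (from −0.34 to 0.92), did not pass.

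Lpin2 had 53.4 and 51.9 CPM in uninduced C cells and 37.9 and 36.8 in uninduced P cells, and 38.4 and 41.5 against 30.7 and 30.4 at day 1. The C libraries of day −2 were the highest and the P libraries of day 1 the lowest, without overlap in any comparison. In each comparison 53.8% to 77.7% of all tested genes did not overlap. Replicas lay close for this gene also in P cells at day −2, where the higher was 1.03 times the lower. The log2 ratio was −0.40 with induction in C cells (SE 0.13, edgeR adjusted p = 0.0677) and −0.49 in uninduced P against C cells (SE 0.13, interval from −0.81 to −0.18, adjusted p = 0.0823), both past the p threshold at ratios of 0.760 and 0.710. It was −0.29 with induction in P cells (adjusted p = 0.162) and −0.39 in induced P against C cells (0.198). Leaving out a library moved the difference at day −2 only between −0.52 and −0.48.

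**Figure D3:**
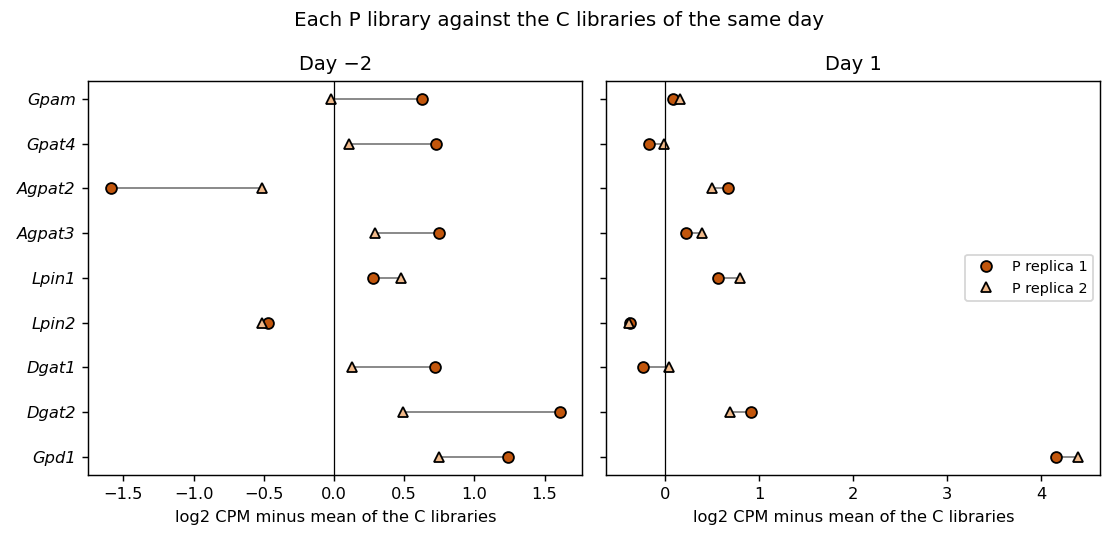
Log2 CPM of each P library minus the mean of the C libraries of the same day, for the 9 genes detected in every library; circles are replica 1, triangles replica 2, and the axes of the panels differ in range. At day −2 the replicas lie 0.59 apart in the median and up to 1.12 (Dgat2), at day 1 0.17 in the median and up to 0.28.

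The P replicas of day −2 differed unevenly over the pathway. Replica 1 was above replica 2 by log2 1.12 for Dgat2, 0.65 for Gpam, 0.62 for Gpat4, 0.59 for Dgat1, 0.49 for Gpd1 and 0.46 for Agpat3. It was below replica 2 by 1.08 on the log2 scale for Agpat2, a difference of −1.08, while Lpin1 differed by −0.20 and Lpin2 by 0.04. Gpam lay above the mean of the C libraries in replica 1 and at it in replica 2 (0.63 and −0.02).

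Of the final acyltransferases, Dgat2 rose with induction in both cell types and Dgat1 did not pass both thresholds in either. Dgat2 had 2.27 and 1.86 CPM in uninduced C cells and 6.44 and 2.93 in uninduced P cells, and 9.67 and 8.88 against 17.5 and 15.0 at day 1. The P libraries were above the C libraries on both days and the day 1 libraries above those of day −2 in both cells. Its response was log2 2.16 in C cells (SE 0.38, interval from 1.26 to 3.06, edgeR adjusted p = 0.0076), a ratio of 4.47, and was called with any 1 library left out. In P cells it was 1.81 (SE 0.36, from 0.95 to 2.67, adjusted p = 0.0154), a ratio of 3.50, and 2.46 without replica 1 and 1.34 without replica 2 of day −2. Without replica 1 of P cells at day 1 the adjusted p was 0.101 and the call was lost.

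The responses of Dgat2 in P and C cells differed by log2 −0.35 (interval from −1.57 to 0.86, edgeR adjusted p = 0.691), a wide interval that includes changes of either sign. For Gpd1 the interval of the same difference started at 2.45. Between P and C cells the log2 ratio of Dgat2 was 1.16 at day −2 (SE 0.38, from 0.26 to 2.06, adjusted p = 0.125) and 0.81 at day 1 (SE 0.35, from −0.02 to 1.64, adjusted p = 0.321). Neither was called. The value at day −2 was 0.51 without replica 1 and 1.63 without replica 2 of P cells, and the latter was called.

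Dgat1 had 18.1 and 18.7 CPM in uninduced C cells and 30.3 and 20.2 in uninduced P cells, and 31.6 and 40.7 against 30.3 and 36.9 at day 1. In C cells both day 1 libraries were above those of day −2, whereas replica 1 of P cells at day −2 was already at the level of replica 1 at day 1. The response was log2 0.98 in C cells (SE 0.24, interval from 0.40 to 1.55, edgeR adjusted p = 0.0274), with a ratio of 1.97, just under the limit, and 1.17 and called without replica 1 of C cells at day 1. It was 0.41 in P cells (from −0.16 to 0.99, adjusted p = 0.256), and 0.73 and 0.16 without replica 1 or replica 2 of day −2. The difference between the responses, −0.56 (from −1.37 to 0.25, adjusted p = 0.432), did not pass, and P and C cells differed by 0.46 at day −2 (adjusted p = 0.28; 0.14 without replica 1 and 0.72 without replica 2 of P cells) and by −0.11 at day 1 (from −0.68 to 0.46).

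The other isoenzymes of the same steps were taken from a list of 11 genes, of which 8 could be tested (Gpat2, Mogat1 and Mogat2 had too few counts). With induction Agpat4 was called higher and Lpin3 lower in C cells, against 10.7% and 9.68% of all tested genes. In P cells Gpat3 was called higher and Lpin3 lower, against 7.65% and 10.4%. Gpat3, an acyltransferase of the first step, had 6.50 and 5.72 CPM in uninduced C cells and 2.50 and 1.89 in uninduced P cells, and 5.21 and 5.22 against 8.59 and 8.08 at day 1. The P libraries were below the C libraries before induction and above them after it, though the difference at day 1 was not called (log2 0.68, edgeR adjusted p = 0.173). Uninduced P cells differed from C cells by log2 −1.48 (SE 0.23, edgeR adjusted p = 0.0153), the response of P cells was 1.93 (SE 0.23, adjusted p = 0.00214), and the responses differed by 2.16 (SE 0.32, interaction adjusted p = 0.0328). The interaction was lost with any 1 of the 6 libraries other than those of P cells at day −2 left out (adjusted p of 0.168 to 0.25). The call at day −2 was lost without either C library of that day (0.161 and 0.115).

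Lpin3, the remaining lipin, had 4.50 and 4.83 CPM in uninduced C cells and 6.98 and 4.25 in uninduced P cells, and fell to 0.710 and 0.916 (C cells) and to 0.171 and 0.747 (P cells) at day 1. The log2 ratios were −2.51 in C cells (SE 0.55, edgeR adjusted p = 0.0171) and −3.61 in P cells (SE 0.59, 0.00748), and the former was lost without replica 1 of C cells at day 1 (adjusted p = 0.121). In P cells it was −2.89 without replica 1 and −4.99 without replica 2 of day 1, and called in both cases. Agpat4 rose by log2 1.24 in C cells (SE 0.29, adjusted p = 0.0227), a call lost without either C library of day −2 or replica 2 of day 1. Pck2, the mitochondrial phosphoenolpyruvate carboxykinase, had 72.6 to 174 CPM over the 8 libraries and Gpd1l, a relative of Gpd1, 33.6 to 54.2. Neither was highest in the P libraries of day 1. Agpat1, Agpat5 and Lclat1, further acyltransferases, were not called in any comparison. No gene of this list was called in induced P against C cells (background 1.83% higher and 2.23% lower). Gpat3 alone was called in uninduced P against C cells (background 2.15% lower) and in the interaction (2.37%). Over its 8 tested genes the median log2 ratio was 0.07 with induction in C cells and −0.16 in P cells.

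Genes that feed or drain the glycerol 3-phosphate pool were taken from a list of 14, of which 13 could be tested (not Aqp7). In C cells induction called Pcx higher and Gk and Gpd2 lower, against 10.7% and 9.68% of all tested genes. In P cells it called Pcx higher and Gpd2 and Pgp lower, against 7.65% and 10.4%. Uninduced P and C cells showed no call (background 4.83% higher and 2.15% lower). Pcx and Tpi1 were called lower in P cells at day 1 (background 2.23%) and also in the interaction (2.37%). Over the 12 genes of this list detected in every library, the median log2 ratio was −0.21 with induction in C cells and −0.45 in P cells.

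Pcx, the pyruvate carboxylase that makes oxaloacetate upstream of Pck1, had 49.7 and 38.8 CPM in uninduced C cells and 105 and 66.9 in uninduced P cells. At day 1 it had 427 and 491 CPM in C cells and 212 in both P libraries. The C libraries of day 1 were above all others. The response was log2 3.37 in C cells (SE 0.26, edgeR adjusted p = 3.15e-04), a ratio of 10.4, and 1.30 in P cells (SE 0.24, adjusted p = 0.012). The responses differed by −2.07 (SE 0.34, interaction adjusted p = 0.0469), and induced P cells differed from C cells by log2 −1.11 (SE 0.24, adjusted p = 0.0595). The sign is opposite to that of Gpd1 and Pck1 in the same libraries. The call at day 1 and the interaction were each lost without any 1 of the 6 libraries other than those of P cells at day −2, with adjusted p-values of 0.134 to 0.393.

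Gpd2, the mitochondrial dehydrogenase that consumes glycerol 3-phosphate, fell in both cells. It had 86.4 and 84.1 CPM in uninduced C cells and 40.9 and 56.8 in uninduced P cells, and 18.9 and 22.0 against 20.4 and 16.3 at day 1. The log2 ratios were −2.06 in C cells (SE 0.22, edgeR adjusted p = 9.91e-04) and −1.41 in P cells (SE 0.21, 0.00539). Gk, the glycerol kinase, was called lower in C cells, from 13.4 and 18.2 to 5.72 and 5.77 CPM (log2 −1.46, adjusted p = 0.0379), and the call was lost without any 1 of these 4 libraries. P cells had 6.23 and 15.1 CPM of Gk at day −2 and 7.82 and 7.52 at day 1, and the responses differed by 0.97 (interval from −0.36 to 2.30, interaction adjusted p = 0.419). Tpi1, the triose phosphate isomerase next to the substrate of Gpd1, had 1023 and 1148 CPM in induced C cells and 470 and 471 in induced P cells. The ratio on the log2 scale was −1.20 (SE 0.16, adjusted p = 0.0134), lost without replica 2 of C cells or either P library of that day. Its responses differed by −1.45 (interaction adjusted p = 0.0414), a call lost without any 1 of the 6 libraries other than those of P cells at day −2 (0.141 to 0.315). Pgp, a phosphatase that can act on glycerol 3-phosphate, had a log2 ratio of −1.37 with induction in P cells (adjusted p = 0.0265). It was −0.75 and not called without replica 1 of P cells at day −2, which had 148 CPM against 36.0 to 70.6 elsewhere, and the call was also lost without either P library of day 1.

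**Figure D4:**
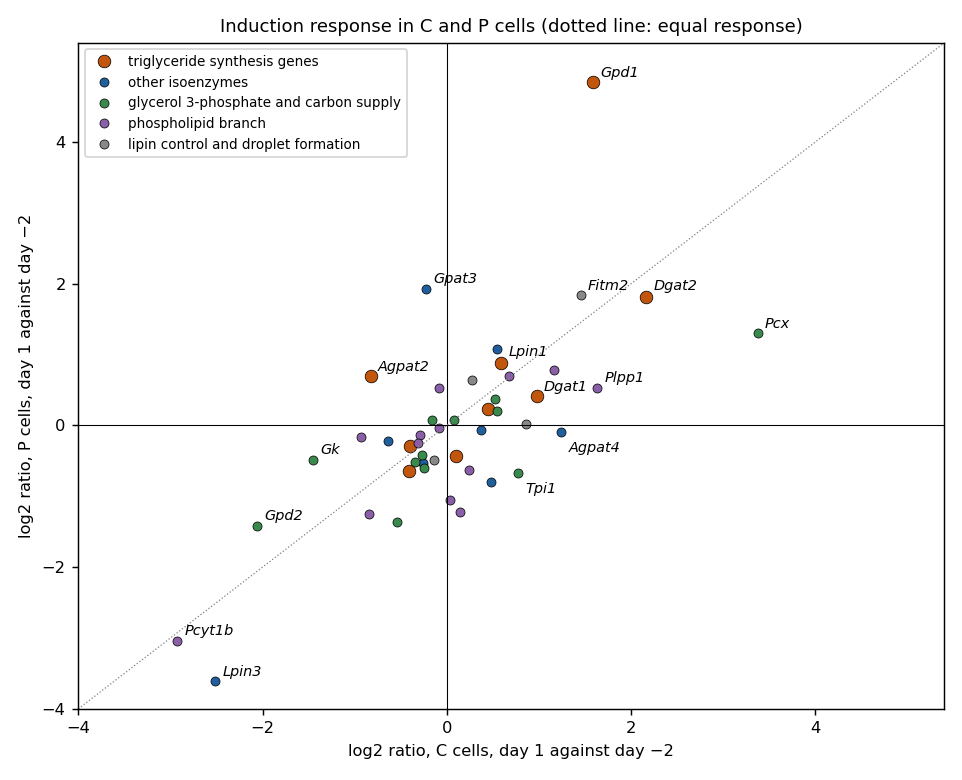
Log2 ratio of day 1 to day −2 in C cells (horizontal axis) and P cells (vertical axis) for the genes of the pathway lists detected in every library, coloured by list, with a dotted line of equal response. Gpd1 (1.58 and 4.85) and Gpat3 lie far above the line and Pcx (3.37 and 1.30) far below it, while Dgat2 (2.16 and 1.81) lies near it.

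Phosphatidate and diacylglycerol are also drawn into phospholipids, and of 14 genes listed with that branch 13 could be tested (not Cds1). In this list Plpp1, Plpp2 and Plpp3 are lipid phosphate phosphatases and not enzymes that make phospholipids. With induction, C cells had 2 genes called higher (Plpp1 and Plpp3) and 1 lower (Pcyt1b), against 10.7% and 9.68% of all tested genes. P cells had none called higher and 4 lower (Cdipt, Pgs1, Pcyt1b and Plpp2), against 7.65% and 10.4%. Pcyt1b, an isoform of the CTP:phosphocholine transferase of phosphatidylcholine synthesis, had 52.6 and 49.2 CPM in uninduced C cells and 34.1 and 30.7 in uninduced P cells. It fell to 6.59 and 6.81 CPM and to 3.80 and 4.06 at day 1, by log2 −2.92 in C cells (SE 0.16, edgeR adjusted p = 9.27e-05) and −3.04 in P cells (SE 0.16, 1.51e-04). Plpp3, a lipid phosphate phosphatase, had 90.4 CPM in both C libraries and 193 and 186 in P cells at day −2, and 209 and 196 against 338 and 314 at day 1. Uninduced P cells exceeded C cells by log2 1.07 (SE 0.13, adjusted p = 0.00646), lost without either C library of that day (0.119 and 0.115), with the 2 conditions fitted alone (0.170) and, through the ratio, with library totals as the scale (0.88).

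The remaining calls in that list were Plpp1, higher with induction in C cells (log2 1.63, edgeR adjusted p = 0.0133) and higher in P than in C cells at day −2 (1.30, 0.0729), and Plpp2, lower in P than in C cells at day 1 (−1.34, 0.0515). For Plpp1 at day −2 replica 1 of P cells had 98.7 CPM and replica 2 47.5, and the value without replica 1 was 0.69. Cdipt and Pgs1 were likewise higher in replica 1 of P cells at day −2 (215 and 185 CPM) than in replica 2 (74.1 and 94.0), and their responses were −0.27 and −0.49 without replica 1. The call of Cdipt was lost with 7 of the 8 libraries left out in turn and that of Pgs1 with 5, and both were lost with library totals as the scale (−0.97 and −0.82). That of Plpp2 in the induction of P cells was lost without replica 1 of day −2 (−0.86) or either P library of day 1 (adjusted p of 0.142 in both cases). The call of Plpp1 in C cells was lost without replica 1 of C cells at day −2 (adjusted p = 0.114), that in uninduced P against C cells without any 1 library other than replica 2 of P cells at day −2, and that of Plpp2 at day 1 without any 1 of the 6 libraries other than those of P cells at day −2. In P against C cells, Plpp1 and Plpp3 were called higher at day −2 (background 4.83%) and Plpp2 lower at day 1 (2.23%). No gene of that list was called in the interaction (background 2.37%). The median log2 ratio of its 13 tested genes was −0.08 with induction in C cells and −0.16 in P cells.

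Of 6 genes that regulate lipins or form droplets, 5 were found in the table (Ldaf1 was not analysed here) and 4 could be tested. Fitm2, a protein of the endoplasmic reticulum needed for droplet formation, had 12.2 and 13.4 CPM in uninduced C cells and 17.5 and 17.1 in uninduced P cells, and 37.3 and 32.9 against 60.9 and 62.9 at day 1. It rose by log2 1.45 in C cells (SE 0.15, edgeR adjusted p = 9.05e-04) and 1.84 in P cells (SE 0.15, 5.67e-04). In induced P against C cells it passed the p threshold at log2 0.82 (adjusted p = 0.0323), under the limit on the ratio. The other 3 tested genes of this list were not called in any comparison. Fitm1 had 0 counts in every library. The median log2 ratio of the 4 tested genes was 0.57 with induction in C cells and 0.33 in P cells.

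The genes whose log2 CPM over the 8 libraries were most like those of Gpd1, Dgat2 and Pck1 are given as a description, since libraries of a condition share their treatment. Among 11646 genes with a mean of at least 1 CPM, the closest to Gpd1 were Cidec (Pearson r = 0.992), a droplet protein and 1 of the adipocyte markers above, Pnpla2 (0.979), the triglyceride lipase of fat cells, and Myorg (0.974). Closest to Dgat2 were Plcl1 (0.990), Rogdi (0.988) and Smarca2 (0.986). Closest to Pck1, among 11647 genes, were Acsl1 (0.981), an acyl-CoA synthetase, Cfd (0.974), the secreted adipsin, and Pcdh10 (0.974), and with counts in 3 of 8 libraries this order rests almost wholly on the P libraries of day 1.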

How the data were processed

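RNA from 8 libraries of 3T3-L1 cells was sequenced on Ion Torrent. The authors removed artifacts (FASTX-Toolkit), mapped the reads on mm9 using TopHat2 2.0.9 and counted those in each NCBI gene of UCSC refGene, and the deposited values are these raw counts, without normalization. They called genes with DESeq; that program was not run here. The use of strand and the treatment of reads with several matches are not given in the sources used here. Of the 10 genes, Agpat3 and Lpin1 overlap other listed genes, which held at most 1 count.

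Symbols came from RefSeq (GRCm38.p6), used for names only, which named 23929 of the 24013 genes and left 84 without. CPM are not divided by gene length, so levels of different genes were not compared, and no coordinates or sequences were used.

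The tests used edgeR 4.0.16 (with limma 3.58.1, under R 4.3.3): filterByExpr on the 4 conditions, TMM scaling and a quasi-likelihood fit with 1 mean per condition over all 8 libraries, which share 1 estimate of the spread. P-values are two-sided and adjusted by Benjamini-Hochberg over the 13339 genes tested. SE were obtained from the fold change and its F statistic, and log2 CPM used a prior count of 2. Fits were tested on simulated data. Calls needed an adjusted p under 0.1 and a ratio over 2 or under 0.5, the study's thresholds, the interaction an adjusted p under 0.1. A floor of 3 counts was used as the upper limit of a gene at 0. Where a condition is left with 1 library, that library is assumed to vary like the others. Alternatives were DESeq2 1.42.0, other scalings, filters, thresholds and libraries, and the replica number as a block.

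All 10 genes are named. Genes of the other lists are named where called, where not tested, or as isoenzymes. The genes and lists were chosen with earlier results of these data known.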

Additional observations from a re-analysis of the deposited data

Results flagged for a closer look

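Gpd1 was the gene of triglyceride assembly for which the test of the difference itself called unequal responses in P and C cells, with a log2 difference of 3.26 (edgeR interaction, adjusted p = 0.011). Its level rose from 0.901 ± 0.0215 to 2.71 ± 0.235 CPM in C cells and from 1.90 ± 0.472 to 54.3 ± 6.11 CPM in P cells (mean ± SD, n = 2). The adjusted p lay at 0.106 and 0.102 without replica 1 of C cells at day −2 or replica 2 of P cells at day 1.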

How the results depend on the processing

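Of 873 values of single genes of triglyceride assembly under the alternatives, 813 kept their direction and side of the thresholds, 27 lost a call, 22 gained one and 11 changed sign. Of 1075 values of the other pathway genes and Prep1 that had passed the p threshold, 942 kept both, 96 lost a call, 37 gained one and 0 changed sign. The 873 values include the adjusted p of Pck1 in the induction of P cells and at day 1, and nothing is drawn from these. Pck1 had enough counts for a test only through the induced P cells, so the calls described below are those of the other genes. In the induction of C cells 2 genes were called, 5 without the limit on the ratio, 3 with no filter on low counts (Dgat1, log2 1.00), and 2 to 3 with 1 library left out. In that of P cells Dgat2 and Gpd1 were called, and Agpat3 and Lpin1 as well without the limit on the ratio. Between P and C cells at day −2, 1 gene was called: 2 by DESeq2, 0 with library totals as the scale, 0 at an adjusted p under 0.05, 2 without the limit on the ratio, 0 with the 2 conditions fitted alone (Gpd1, adjusted p = 0.409), and 0 to 3 with 1 library left out. At day 1 Gpd1 was called, and it kept this call under the alternatives. In the interaction Gpd1 was called, and by DESeq2 Agpat2 as well. Gpd1 lost this call with some single libraries left out, as given above. Without replica 2 of P cells at day −2, 8 genes passed in the interaction, a count that includes Pck1, from which nothing is drawn. The others were Gpd1, Gpam, Gpat4, Agpat2, Agpat3, Dgat1 and Dgat2. That fit left 1 library in the condition, and the spread was estimated from the closer replicas that remained. These calls say little, since 8395 of all genes were called in the interaction in place of 316. In uninduced P against C cells 4380 were called in place of 931, and in the induction of P cells 5000 in place of 2406. DESeq2 called 930 genes in the interaction. With the 2 conditions fitted alone, 1213 genes in place of 2406 were called in the induction of P cells, 81 in place of 931 in uninduced P against C cells, and 899 in place of 542 at day 1. The causes of these changes were not tested.

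The labels do not say that replica numbers mark a shared batch. Libraries of the same number had deviations with correlations of −0.355 to 0.209 between conditions, so the numbers were not taken to pair them. With the replicate block, 0 genes of triglyceride assembly were called in P against C cells at day −2 (Gpd1, edgeR adjusted p = 0.126). Gpd1 was still called at day 1, and the block changed no other call among the genes other than Pck1. Of the other pathway genes it ended the calls of Cdipt in the induction of P cells, Plpp1 at day −2, Pcx and Plpp2 at day 1, and the interactions of Pcx and Tpi1 (adjusted p of 0.105 to 0.145). Over all genes 597 calls in place of 931 were made with it at day −2 and 117 in place of 316 in the interaction. Blocks with the day 1 numbers of P cells, or all day 1 numbers, crossed were added after the data were seen and gave 1 and 2 calls at day −2, 1 and 1 at day 1.

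The values that changed sign were small. With library totals as the scale, which shifts the median of all genes by −0.11, 0.19, −0.18 and 0.11 in the 4 comparisons and by 0.29 in the interaction, Gpat4 had log2 −0.01 in the induction of C cells and 0.01 between P and C cells at day 1, and the interaction was 0.10 for Gpam and 0.08 for Agpat3. With 1 library left out, Gpat4 ranged from −0.00 to 0.23 in the induction of C cells, Gpam from −0.06 to 0.58 in that of P cells and from −0.02 to 0.63 in uninduced P against C cells, and Dgat1 from −0.31 to 0.07 at day 1. The interaction ranged from −0.51 to 0.11 for Gpam and from −0.82 to 0.28 for Dgat2. Dgat2 in the induction of P cells was not called with the 2 conditions fitted alone (adjusted p = 0.107), and Lpin1 was called there with library totals (1.05). Depth limits Pck1 most, with at most 19 counts in a library.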
